A study of Mus musculus with 2 samples.

Results

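JAK, STAT, IRF, SOCS and PIAS genes carry and restrain cytokine and interferon signals, and 29 of them were measured here in cultured mouse fibroblastic reticular cells (FRCs), the stromal fibroblasts of lymph nodes. The members were taken by symbol: the numbered Jak, Stat, Irf, Socs and Pias genes, with Tyk2 and Cish, where a probe set in the platform's annotation named that gene alone. This gave 29 genes, among 19751 named genes on the array. They fell into 5 families, with 3 JAK kinases, 6 STAT factors, 8 IRF factors, 8 SOCS and CIS inhibitors and 4 PIAS SUMO ligases. Jak3 was not analysed here, because the probe set annotated to it also named Insl3. The rule uses symbols and no measured value.

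The series has 1 group and 2 microarrays, named replicate 1 and replicate 2 in the labels. Lymph node stroma of untreated C57BL6/J mice, 4 to 6 weeks old, was expanded in αMEM with 10% serum over 7 to 10 days, and total RNA was hybridised. There is no second condition, so no significance test was possible, and since no label ties a replicate to an animal or a culture of its own, their spread may be technical only. Levels are log2 intensities, and each mean ± SD is over n = 2 arrays. Probes differ in how strongly they bind, so no gene's level was ranked against another's.

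Cytokine receptors of this pathway have no kinase of their own. A JAK bound to the receptor's tail is switched on when the ligand draws receptor chains together, and it phosphorylates a STAT, which pairs with a second STAT, enters the nucleus and binds a GAS element. Type I interferon makes STAT2 and IRF9 assemble into a complex that binds the ISRE element instead, while IRF3 and IRF7 are activated by sensors of viral nucleic acid and switch on the interferon genes. SOCS1, SOCS3 and CIS are induced by STATs and shut the receptor down again, and PIAS proteins attach SUMO to STATs and other factors. FRCs are the fibroblasts of the lymph node's T cell zone. They answer to interferon gamma from T cells, and they make IL-7, IL-6 and other cytokines that signal through JAKs in neighbouring lymphocytes.

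Some members are known targets of STATs or of the interferon complex, and promoter stretches of 5 members are printed to show where GAS-type or ISRE-type letters occur in them. The windows are those of RefSeq (build GRCm38.p6), from 250 bases before to 50 after a gene's annotated start, read in the direction of the gene. Capitals mark letters of a GAS type (TTC, any 3 bases, GAA) or an ISRE type (GAAA, any 2 bases, GAAA, or the complement on the other strand). Cish (chr9:107296529-107296678, plus strand) is shown because it differed most between the arrays. It holds 2 GAS-type matches, at bases 1 and 12 from the annotated start. Socs3 (chr11:117969437-117969586, minus strand) is another feedback inhibitor, with a match 154 bases before its start, and Irf1 (chr11:53769854-53770003, plus strand) is a classical early target with a match 90 bases before its start. Socs1 (chr16:10785537-10785686, minus strand) holds 2 overlapping ISRE-type matches, 83 and 77 bases before its start, and Stat2 (chr10:128270248-128270397, plus strand) holds 1, on the other strand, 222 bases before its start.
Cish: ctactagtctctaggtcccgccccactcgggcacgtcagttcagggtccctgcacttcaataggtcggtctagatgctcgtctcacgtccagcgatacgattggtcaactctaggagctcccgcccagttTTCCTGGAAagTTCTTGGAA
Socs3: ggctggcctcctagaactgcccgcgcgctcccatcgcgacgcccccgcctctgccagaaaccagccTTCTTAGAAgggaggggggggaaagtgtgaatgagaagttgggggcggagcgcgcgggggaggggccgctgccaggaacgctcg
Irf1: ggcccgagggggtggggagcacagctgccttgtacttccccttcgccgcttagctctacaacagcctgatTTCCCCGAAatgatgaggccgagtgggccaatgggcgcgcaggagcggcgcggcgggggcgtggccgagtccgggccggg
Socs1: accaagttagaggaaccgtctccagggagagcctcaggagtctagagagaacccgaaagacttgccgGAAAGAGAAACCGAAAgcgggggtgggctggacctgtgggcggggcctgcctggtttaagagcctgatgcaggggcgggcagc
Stat2: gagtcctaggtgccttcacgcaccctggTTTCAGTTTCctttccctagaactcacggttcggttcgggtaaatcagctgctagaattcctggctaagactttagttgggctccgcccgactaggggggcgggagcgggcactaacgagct

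Windows were found for 23 of the 29 members, and not for Pias2, Pias4, Socs2, Socs5, Socs6 and Socs7. GAS-type letters on either strand lay in the windows of 5 of the 23 (21.7%), Cish, Socs3, Irf1, Irf2 and Irf8, and in those of 9.55% of all 27025 genes in the table, or 8.30% of all windows. ISRE-type letters lay in those of 4 (17.4%), Socs1, Stat2, Stat4 and Irf2, against 3.99% of all genes and 3.44% of windows. Among the type I interferon targets listed further on, 8 of 15 genes with a window held ISRE-type letters and 7 held GAS-type letters. GAS-type letters lay in the windows of 0 of 11 STAT3, 2 of 11 interferon gamma and 2 of 8 STAT5 and STAT6 targets. The 2 letter patterns can overlap, and a match shows only that the letters are present.

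A gene was called above background when it passed a limit on both arrays. The limit was the value below which 95% of the olfactory receptor probe sets lay (1035 sets, for receptors a fibroblast does not use), 7.15 on replicate 1 and 7.17 on replicate 2. A stricter limit, from 38 genes restricted to tissues such as liver, testis or pancreas, was 8.08 and 8.18. Of the 29 members, 27 (93.1%) passed the limit and 25 (86.2%) the stricter one. Over all 19751 named genes, among them the olfactory receptor and tissue-restricted genes that set the limits, these shares were 67.3% and 50.0%. Stat4 and Irf4 lay below both limits on both arrays, and Irf8 and the mean of the Socs6 probe sets passed the first limit only. With only probe sets that list a RefSeq mRNA, 26 members passed the stricter limit.

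**Figure D1:**
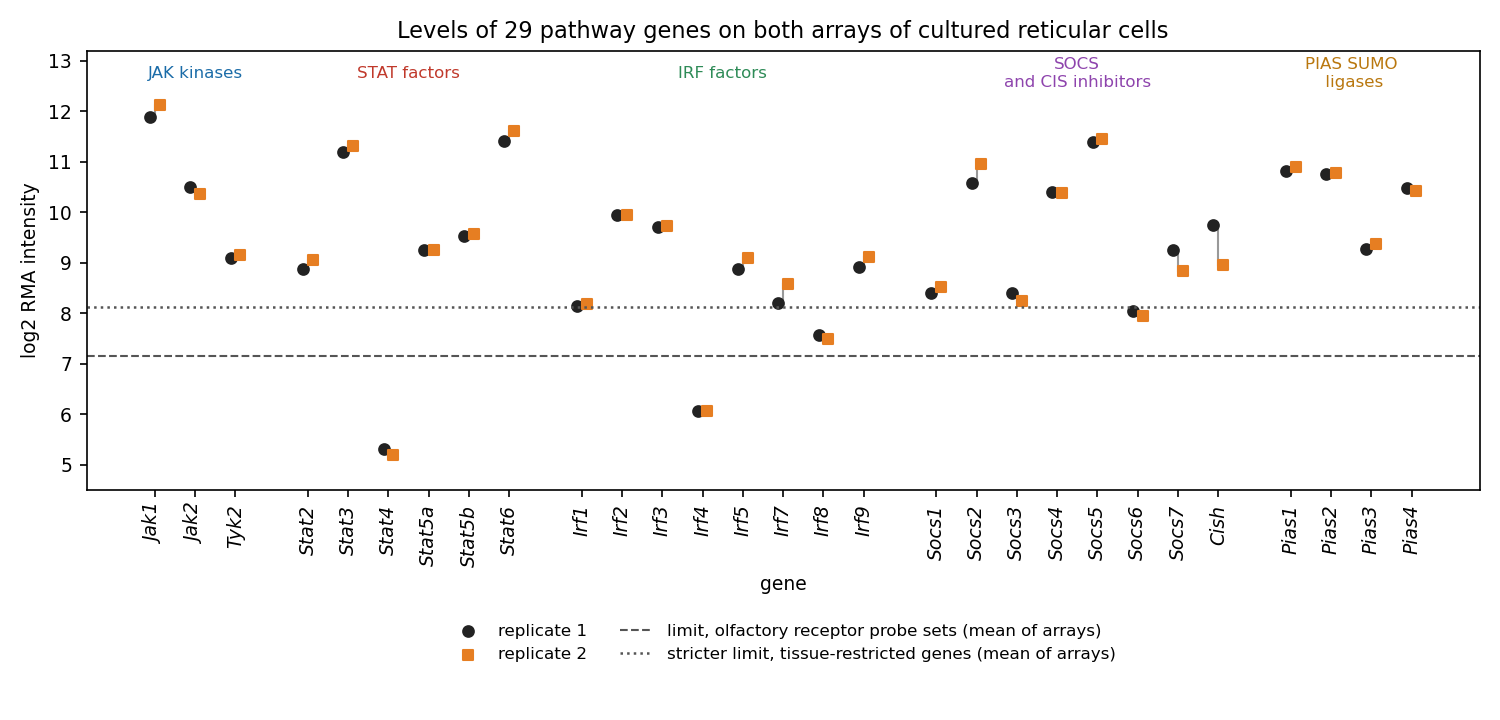
Log2 RMA intensity of each of the 29 genes on replicate 1 (circles) and replicate 2 (squares), grouped by family, with both background limits as horizontal lines at their mean over the arrays. Stat4 and Irf4 lie below the lines, Irf8 and the mean of the Socs6 probe sets between them, and Cish shows the widest gap between its symbols.

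All 3 measured JAK kinases were above both limits. Jak1, which serves the interferon, gp130 and common gamma chain receptors, had 11.88 on replicate 1 and 12.12 on replicate 2 (SD 0.17). Jak2, the kinase of growth hormone, GM-CSF type and interferon gamma receptors, had 10.50 and 10.37 (10.43 ± 0.088). Tyk2, the partner of JAK1 at the type I interferon receptor, had 9.10 and 9.15 (9.12 ± 0.038). The arrays differed by at most 0.23 on the log2 scale in this family, which is 1.18-fold, for Jak1. Differences at least as large were found in 22.0% of the 13577 named genes whose mean lay above the mean limit.

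Of the 6 STAT factors, 5 were above both limits. Stat3, which is activated by IL-6 and its relatives, had 11.20 and 11.32 (11.26 ± 0.081), and Stat6, activated by IL-4 and IL-13, had 11.42 and 11.61 (11.51 ± 0.13). Stat2, the STAT specific to type I and type III interferon, had 8.88 and 9.05 (8.96 ± 0.13). The closely related Stat5a and Stat5b, activated by growth hormone, prolactin and many interleukins, had 9.25 on both arrays and 9.53 and 9.58. In the RefSeq gene table Stat5b, Stat5a and Stat3 are direct neighbours on chromosome 11, and each was read here by 1 probe set annotated to it alone. All 5 were at the same level or slightly higher on replicate 2, by 0.0003 (Stat5a) to 0.19 (Stat6).

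Stat4 was the exception in the family. It transmits IL-12 signals in T and NK cells, and it had 5.31 and 5.19 (5.25 ± 0.083), with 541 and 587 of the 1035 olfactory receptor probe sets at least as bright on the respective array. The Stat4 level thus lay near the middle of the background signals on both arrays.

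Of the 8 IRF factors, 7 passed the limit and 6 the stricter one. Irf2, which represses or competes at IRF1 sites, had 9.95 and 9.94 (9.95 ± 0.0082), and Irf3, the factor stored in the cytoplasm until a virus sensor fires, had 9.72 and 9.73 (9.73 ± 0.0094). These were close pairs of values, since 93.9% and 93.0% of genes differed at least as much. Irf9, the DNA-binding part of the interferon complex, had 8.91 and 9.12 (9.01 ± 0.15). Irf7, which amplifies the interferon response, had 8.21 and 8.57 (8.39 ± 0.26), and Irf5, a factor downstream of Toll-like receptors that is best known in macrophages, had 8.87 and 9.09 (8.98 ± 0.15). All 3 were higher on replicate 2, Irf7 by 1.29-fold, a difference matched or passed in 10.8% of genes.

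Irf4 and Irf8, which direct lymphocyte and myeloid development, gave little or no signal above background. Irf4 had 6.06 and 6.07 (6.06 ± 0.0085), with 280 and 275 olfactory receptor probe sets as bright. Irf8 had 7.57 and 7.49 (7.53 ± 0.056), with 22 and 26 as bright. It passed the first limit and stayed below the stricter one on both arrays.

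Leukocytes could have remained in a stromal culture, so their markers are given beside Irf4, Irf5, Irf8 and Stat4. Of 14 leukocyte markers, 5 passed the limit (Cd53, Csf1r, Cd79b, Cd3e and Coro1a) and 1 the stricter limit, Cd53 (10.67 and 10.75). The pan-leukocyte gene Ptprc had 6.41 and 6.47 and the myeloid and B cell factor Spi1 6.71 and 6.56, both below the limit on both arrays. The summed intensity of the list was 3188 on replicate 1 and 3452 on replicate 2. Lyz2 differed most, with 7.12 and 8.43, below the limit on replicate 1 and at least 2.42-fold higher on replicate 2, or at least 1.27-fold against the stricter limit. The part of such cells in the levels of Irf5 and Irf8 was not tested, and in a bulk sample fewer cells of a type cannot be told from less RNA per cell.

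Of 12 FRC markers, 11 passed the limit and 9 the stricter one. Podoplanin, Pdpn, had 12.60 and 12.73. The PDGF receptor genes had 11.84 and 11.94 (Pdgfra) and 12.81 and 13.11 (Pdgfrb). Fap (5.96 on both arrays) was below the limit, and the muscle-type filament gene Des had 9.09 and 10.11, 2.03-fold higher on replicate 2. Of 10 endothelial markers 4 passed and 0 the stricter limit, and Pecam1, Cdh5 and Kdr had means of 7.18, 7.79 and 7.29. Of the endothelial genes, Emcn (7.64 and 8.40) and Tek (6.93 and 7.68, below the limit on replicate 1) were higher on replicate 2 and Flt4 (8.41 and 7.79) lower. Of 10 epithelial markers 6 passed and 2 the stricter limit, Krt8 (mean 8.47) and Krt19 (10.84 and 10.82). Krt5 (7.34 and 7.42) passed the first limit only. Epcam (mean 6.65), Esrp1 and Grhl2 were below on both arrays, and Cdh1 passed on 1 array. Of the tissue-restricted genes themselves 42.1% passed the first limit, among them Apoa1 and Apoa2 but not Alb, and 5.26% the stricter one.

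The limit was passed by all 8 SOCS and CIS genes, and the stricter one by 7, with the mean of the Socs6 probe sets below it. Socs4 and Socs5, whose products target the epidermal growth factor receptor among others, had 10.39 on both arrays and 11.40 and 11.45 (SDs of 0.0027 and 0.037). Socs1, the inhibitor of interferon signalling that binds JAKs directly, had 8.41 and 8.52 (8.47 ± 0.078). Socs7, known from insulin and prolactin signalling, had 9.26 and 8.85 (9.05 ± 0.29) and was 1.33-fold lower on replicate 2, a size reached by 9.03% of genes.

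Socs2, Socs3, Socs6 and Irf1 were each read by more than 1 probe set, and these gave different levels. The 2 probe sets of Socs2, the inhibitor of growth hormone signalling, had means of 9.83 ± 0.31 and 11.71 ± 0.23, and both were higher on replicate 2, by 1.35-fold and 1.25-fold. For Socs3, which blocks gp130 signalling, the probe set that lists RefSeq mRNAs had 9.27 and 8.92 (1.27-fold lower on replicate 2), while a second one that lists a single other transcript had 7.52 and 7.59, and the mean over both was 8.32 ± 0.099. Socs6 had 1 probe set without a RefSeq mRNA at 3.81 and 3.92, far below the limit, and 2 with one at 9.90 and 9.78 and at 10.42 and 10.17. The mean over all 3 (SD 0.062) put Socs6 below the stricter limit, and the mean over the latter 2 was 10.06, above it. Irf1, the early interferon gamma target, had 8.63 and 8.65 on the probe set that lists RefSeq mRNAs and 7.67 and 7.73 on another. Its mean passed the stricter limit on replicate 2 by a narrow margin (8.186 against 8.175).

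**Figure D2:**
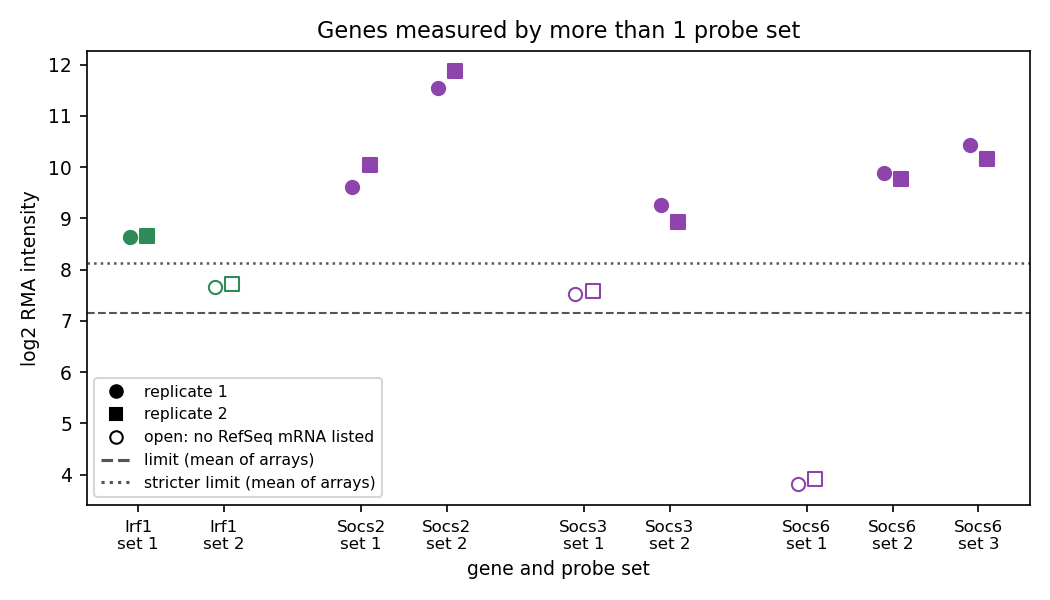
Log2 RMA intensity of every probe set of Irf1, Socs2, Socs3 and Socs6 on replicate 1 (circles) and replicate 2 (squares), with both limits as horizontal lines. Open symbols mark the 3 probe sets that list no RefSeq mRNA, which lie lower than the other probe sets of the same gene, for Socs6 near 3.9 against 9.8 and 10.3.

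Cish, which encodes CIS, an inhibitor induced by STAT5, was the only member past 1.5-fold. It had 9.75 on replicate 1 and 8.95 on replicate 2 (9.35 ± 0.57), which is 1.74-fold lower on replicate 2. Of all 13577 genes with a mean above the limit, 2.32% differed by as much, 1.91% were at least 1.5-fold lower on replicate 2, 2.87% at least 1.5-fold higher and 4.77% past 1.5-fold in either direction. Of the members 0 were past 1.5-fold higher and 0 past 2-fold, which 1.41% of genes reached. The members' own share past 1.5-fold, 1 of 27 or 3.70%, lay close to that background, so the number of differing members is not a result about these genes. The difference of Cish rests on 1 array a side and 1 probe set and has no replicate check. Its GAS-type letters are those shown above at the annotated start.

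The 4 PIAS genes were above both limits with little difference between the arrays. Pias1 had 10.83 and 10.91, Pias2 10.76 and 10.78, Pias3, first described as an inhibitor of STAT3, 9.27 and 9.38, and Pias4 10.49 and 10.42. Their SDs ran from 0.020 (Pias2) to 0.079 (Pias3). Over the 27 members with a mean above the limit the median SD was 0.078, as it was over the 13577 genes, and the median difference was 0.048 against 0.0046. Higher on replicate 2 were 18 of the 27 and lower 9, beside 6948 and 6629 of the 13577 genes. By family, the median difference was 0.053 for JAKs, 0.11 for STATs, 0.036 for IRFs, -0.046 for SOCS and CIS and 0.055 for PIAS genes.

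**Figure D3:**
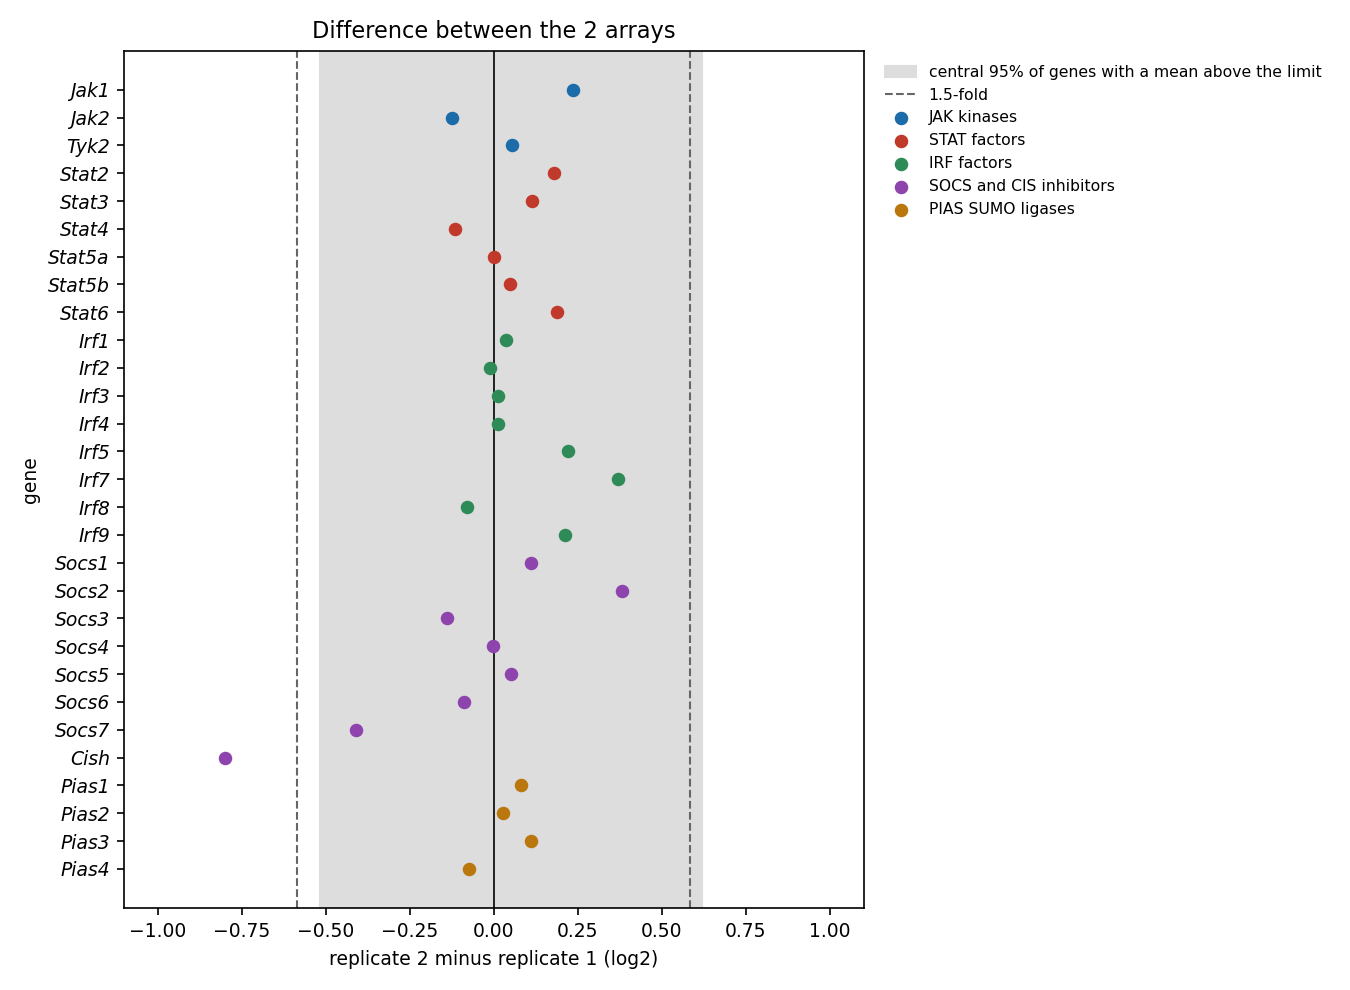
Replicate 2 minus replicate 1 on the log2 scale for each of the 29 genes, coloured by family, with the central 95% of all genes whose mean lay above the limit (-0.52 to 0.62) as a grey band and 1.5-fold as broken lines. Cish, at -0.80, is the only gene outside the band.

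The genes around the members were taken from 13 lists of ligands, receptors, sensors, inhibitors and targets, 162 measured genes in all, of which 65.4% passed the limit and 49.4% the stricter one, close to the shares of all named genes. The receptors were split by family. Of 10 interferon and IL-10 family receptor genes 7 passed, with the type I interferon receptor genes Ifnar1 and Ifnar2 at 10.96 and 10.97, and 11.40 and 11.41, and Ifngr1 of the interferon gamma receptor at 11.14 and 11.40. Il10ra, Il20ra and Il22ra1 were below the limit. Of 8 gp130 family genes 6 passed, all above the stricter limit, with the shared signalling chain Il6st at 12.05 and 12.35, Il6ra at 8.97 and 8.94 and the LIF receptor Lifr at 8.21 and 8.60. Lepr and Csf3r were below. Cntfr, the receptor chain for ciliary neurotrophic factor, had 9.31 and 8.69, 1.54-fold lower on replicate 2.

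The list of common gamma and beta chain and related receptors gave 8 of 14 genes past the limit and 6 past the stricter one. The common gamma chain gene itself, Il2rg, was not among the 14. Il2ra (mean 5.73), Il2rb, Il7r, Il5ra, Il13ra2 and Csf2rb were below the limit on both arrays. Il4ra and Il13ra1, whose products together form the receptor that signals to STAT6 outside the blood lineage, were above it and both higher on replicate 2. Il4ra had 11.17 and 11.79 (1.54-fold) and Il13ra1 9.06 and 9.79 (1.66-fold), sizes reached by 4.10% and 2.92% of genes. Of the hormone-type and IL-12 family receptors 3 of 5 passed and 1 the stricter limit, the growth hormone receptor Ghr (12.49 and 12.45), with Epor at 7.63 and 7.64. The IL-12 receptor chain Il12rb2 and Il23r, which feed STAT4 and STAT3, were below, and Il12rb1 (7.80 and 7.77) passed the first limit only.

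Ligands were mostly at background apart from the gp130 family. Of 7 interferon genes 3 passed (Ifna2, Ifng and Ifnl2) and 1 the stricter limit, Ifnl2 (9.06 and 8.96), while Ifnb1 (6.41 and 6.19) and Ifna4 were below. Of 7 gp130 ligands 6 passed and 5 the stricter limit, with Osm below (6.58 and 6.68). Il6 had 12.08 and 10.83, 2.38-fold lower on replicate 2, and Lif, which signals through the same chain, 10.66 and 9.57, 2.13-fold lower. Of 18 other ligands that use JAKs 3 passed and 0 the stricter limit, namely Il7 (8.66 and 7.74), Tslp (8.56 and 7.98) and Il13, and Il2, Il3 and Il4 were below. Il7 was 1.89-fold lower on replicate 2, or at least 1.40-fold against the stricter limit.

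**Figure D4:**
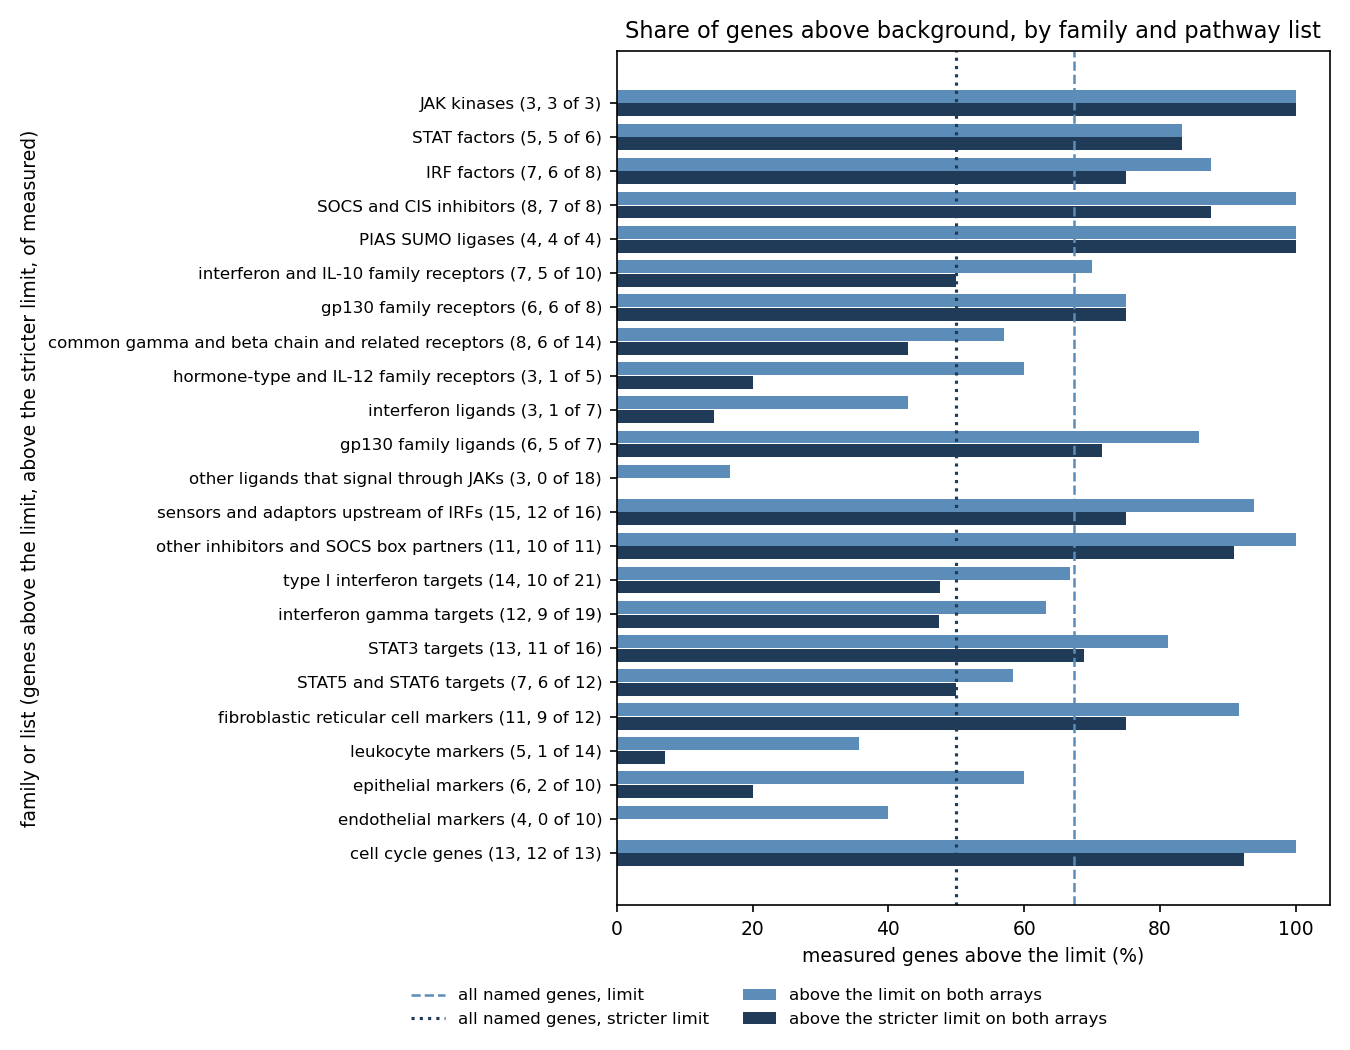
Percentage of measured genes above the limit (light bars) and above the stricter limit (dark bars) on both arrays for the 5 families and the lists around them, with the counts in the labels and the shares of all named genes (67.3% and 50.0%) as vertical lines. The 5 families, the sensors and the inhibitors lie to the right of both lines. So do the gp130 receptors and ligands, STAT3 targets, FRC markers and cell cycle genes. To the left of both lie the interferon ligands, the other ligands and the hormone-type and common gamma and beta chain receptors. The leukocyte, epithelial and endothelial markers also lie to the left, and both interferon target lists slightly so.

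Sensors and inhibitors were nearly all detected. Of 16 sensors and adaptors upstream of the IRFs 15 passed and 12 the stricter limit, with the double-stranded RNA receptor Tlr3 at 8.63 and 8.86, Tlr4 at 8.71 and 9.23, and Tlr7, the receptor of plasmacytoid cells, below at 5.65 and 5.56. All 11 other inhibitors and SOCS box partners passed and 10 the stricter limit, with the phosphatase genes Ptpn1 at 10.08 and 9.94 and Ptpn2 at 8.51 and 8.42. Ptpn6, the phosphatase of blood cells, had 7.48 and 7.52 and passed only the first limit.

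The target lists showed no common direction between the arrays. Of 21 type I interferon targets 14 passed and 10 the stricter limit, and the 17 with a mean above the limit had a median difference of 0.014, with 10 higher on replicate 2 and 7 lower. Ifit3 had 7.13 and 8.47 and Ifit1 6.75 and 7.63. In both, replicate 1 lay below its limit, so that Ifit3 was at least 2.49-fold and Ifit1 at least 1.39-fold higher on replicate 2. Against the stricter limit these bounds were 1.31 and 1.07, both under 1.5-fold. Ifit2 had 8.69 and 8.29. Stat2, Irf9 and Irf7 of the same response differed by 0.18, 0.21 and 0.37 in favour of replicate 2. Differences at least as large were found in 31.4%, 25.2% and 10.8% of genes. Of 19 interferon gamma targets 12 passed and 9 the stricter limit, with 0 past 1.5-fold, Gbp3 above the limit on 1 array, Cxcl9 at 7.35 and 7.44 and Gbp4 below.

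Of 16 STAT3 targets 13 passed and 11 the stricter limit. Their median difference was -0.17, with 10 of 15 lower on replicate 2, such as Bcl3 (8.94 and 8.68), Myc (12.08 and 11.83) and Junb (9.60 and 9.50), none of which reached 1.5-fold. The 2 past 1.5-fold went the other way, Il4ra and the acute phase gene Lbp (7.49 and 9.22, 3.32-fold, or at least 2.21-fold against the stricter limit). Saa3 was below the limit, and Lcn2 and Hp passed on 1 array each. Of 12 STAT5 and STAT6 targets 7 passed and 6 the stricter limit, with Pim2 at 8.41 and 8.35 and Bcl2 at 11.14 and 10.93. Igf1, a growth hormone and STAT5 target in liver, had 8.38 and 10.75, 5.19-fold higher on replicate 2. The STAT6 targets of macrophages, Arg1, Retnla, Chil3 and Mrc1, were below the limit, and Alox15 passed on 1 array.

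**Figure D5:**
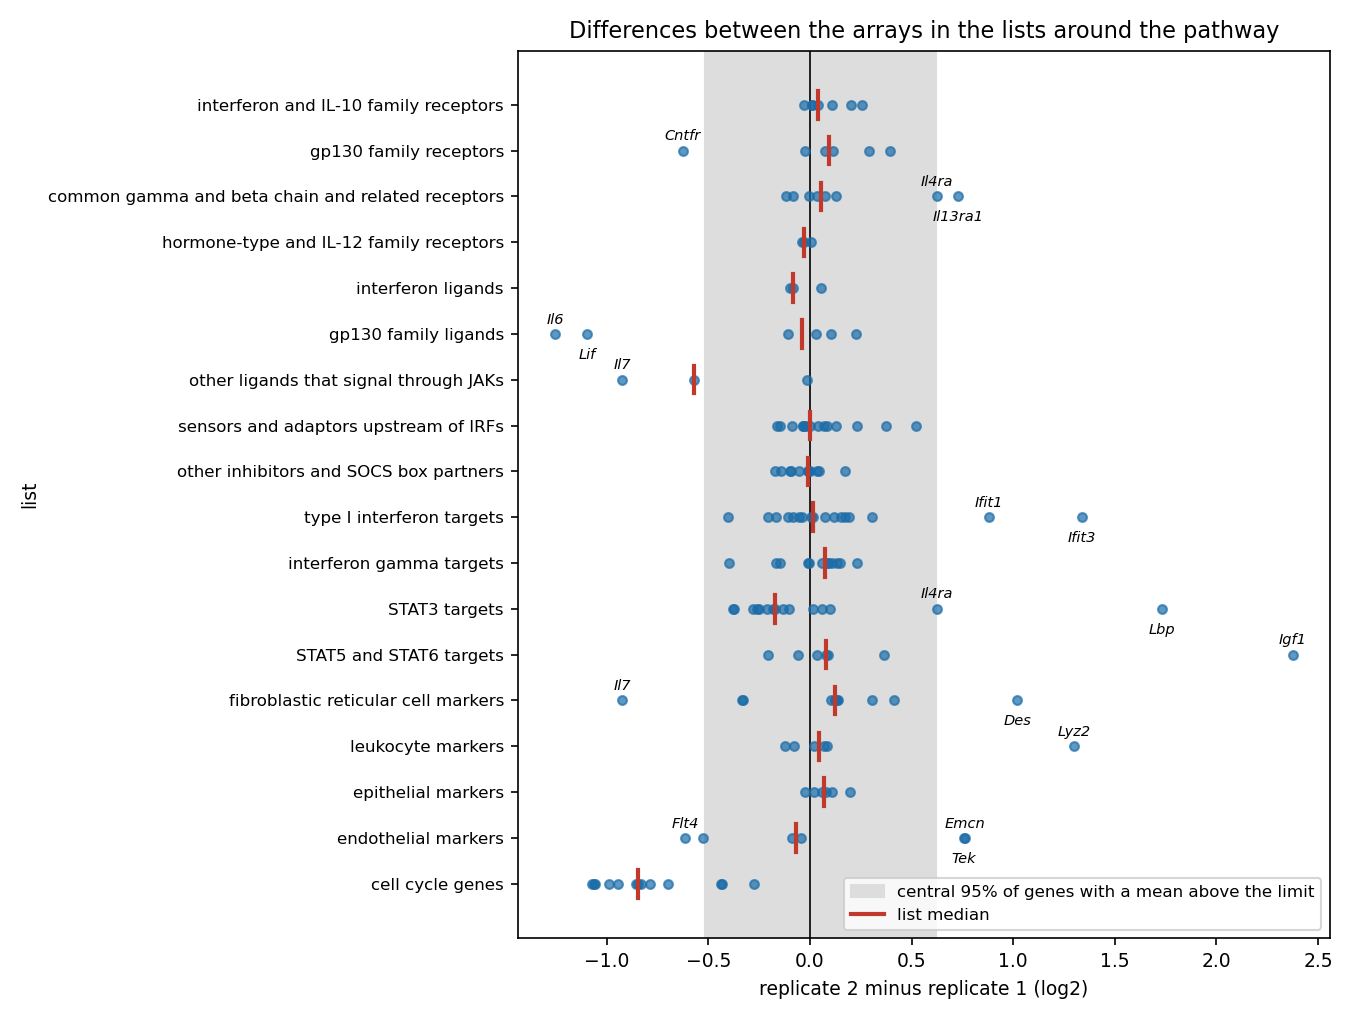
Replicate 2 minus replicate 1 on the log2 scale for genes of the lists whose mean lay above the limit (points), with the list median (red bar) and the central 95% of all such genes (-0.52 to 0.62) as a grey band. Names are given to genes past 1.5-fold outside the cell cycle list, where all 13 points lie below 0. Il6, Lif and Il7 lie left of the band, and Igf1, Lbp and Ifit3 farthest to the right.

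The arrays also differed in cell cycle transcripts. All 13 measured cell cycle genes were lower on replicate 2, with a median difference of -0.85 and 10 past 1.5-fold, among them Mki67 (10.52 and 9.45), Top2a (10.67 and 9.82), Bub1, Birc5 and Plk1 (10.83 and 9.78), while the replication gene Mcm2 had 10.32 and 10.04. The summed intensity of the list was 18456 and 10711. Its part in the differences of Cish, Il6 and Lif was not tested.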

How the data were processed

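Each array gives 1 intensity per probe set, deposited on a linear scale and which the submitters' processing notes credit to RMA, the robust multi-array average. RMA subtracts background, normalises by quantiles and summarises probes. It compresses differences at low signal. Its version, the arrays normalised together and the genome build are not given in the sources used here.

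Intensities ran from 8.77 to 20232 on replicate 1 and 8.20 to 20996 on replicate 2. They were converted to log2 here. Probe sets annotated to a single gene (21354 of 24679) were averaged per gene, and 1275 with several genes were left out. All 29 member identifiers and symbols matched the RefSeq table. The number of arrays, 2, limits the precision. The members, lists and limits were chosen with earlier results of these data known. Named genes were every member, the first 3 measured genes of each list, list genes above or below the limit, whichever were fewer, up to 6, and up to 4 genes a list past 1.5-fold. Krt8 and Krt19 were chosen after their values were seen. A gene was compared between arrays when its mean passed the mean limit, 7.16. Where an array lay at or below a limit, it was set to that limit and the fold is "at least". Only the 1.5-fold call between arrays was tested on simulated data, with planted changes larger than that. The counts above the limits were not tested in this way. Alternatives were other limits, probe set choices, normalisations, filters and folds, and each array alone. Python 3.11.15, pandas 2.3.3 and statsmodels 0.14.6 were used. Some items of the rule are not reported here.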

Additional observations from a re-analysis of the deposited data

How the results depend on the processing

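The counts of members and families above the limit stayed within 1.5 times of those reported under all 9 alternatives, at 25 to 27 of 29 members. Called at 2-fold, the number of members lower on replicate 2 fell from 1 to 0, and it stayed at 1 under the other settings tried. Probe set choice could not alter the difference of this member, Cish, which was read by 1 probe set, and the filters lay below its level. Under the tissue-restricted limit the counts were 1 for hormone-type and IL-12 family receptors, 1 for interferon ligands, 0 for other ligands, 1 for leukocyte, 2 for epithelial and 0 for endothelial markers. The remaining 48 list counts stayed within 1.5 times. Restriction to probe sets with a RefSeq mRNA, added after the data were seen, changed the mean level of Irf1 to 8.64, Socs3 to 9.09 and Socs6 to 10.06. Limiting promoter windows to the 250 bases before the start, also added later, left 4 members with GAS-type letters, without Cish. No paired analysis was possible because the series has 1 group. Irf8 lay between the limits, where signal and background are hard to separate. The mean of the Socs6 probe sets lay there too, but its probe sets had means of 3.87, 9.84 and 10.29, none of them between the limits.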
